A study of Homo sapiens with 6 samples.

Results

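The regions described here are the sites at which HA native ChIP-Seq (nChIP-Seq) gave a peak outside protein coding genes and away from H3K4me3, referred to below as distal HA regions. They were chosen by 3 criteria from the 7216 regions of the merged HA list: location on chromosomes 1 to 22 or X, no region of either H3K4me3 list within 1 kb, and a centre outside every protein coding gene span of GENCODE on GRCh37. Of the 7211 regions on these chromosomes 530 (7.35%) met them, against 475 regions away from H3K4me3 with a centre inside a protein coding gene and 6206 regions within 1 kb of H3K4me3. The HA peaks and the H3K4me3 peaks therefore chose the members, and their HA enrichment and H3K4me3 distances are given as descriptions without a test.

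The study used U2OS cells, a human osteosarcoma cell line, cultured to 2 days past confluence. Stable U2OS cells that constitutively express full-length pro-MMP-2 with a C-terminal 3xHA tag (ProMMP2-3xHA) were compared with wild type (WT) cells, which carry no tag. Of the 6 samples, 3 are HA replicates of ProMMP2-3xHA cells, 1 is the HA library of WT cells, and H3K4me3 was profiled with 1 library per line. A separate list for WT HA was not used here, although the names of the deposited lists show an HA control immunoprecipitation as the background of the HA peaks. The line expresses the tagged protein from a lentiviral vector beside the endogenous MMP-2, and whether each replicate was a separate culture of that line is not given in the labels, although the study describes them as biological replicates. Mean HA coverage recovered from the peak statistics was 4.74, 4.34 and 4.23 fragments per base in replicates 1, 2 and 3. The list of replicate 2 holds no peak under 281 bp while those of replicates 1 and 3 hold narrower ones, and the peaks of replicate 3 carry a different name from those of the other two (NativeHAoriginal).

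MMP-2 is a secreted gelatinase that digests extracellular matrix, and a nuclear pool of it can clip the N-terminal tail of histone H3. In native ChIP, nucleosomes are released with micrococcal nuclease and precipitated without crosslinking, so that only proteins bound firmly to nucleosomal DNA are recovered with it. H3K4me3 marks active promoters, and regulatory elements that lie far from promoters usually carry little of it. Among the factors known to bind such elements is the nuclear factor I family (NFIA, NFIB, NFIC and NFIX). These proteins bind as dimers to a palindrome in which TGGC and GCCA are separated by 5 free bases, most firmly when a T precedes and an A follows it. No NFI protein was measured in this study.

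Sequences at the summits of distal HA regions are shown first, chosen mainly to display a short word that many of them hold. Of the 10 regions with the highest mean fold enrichment 4 held it and 6, the highest included, did not. The palindrome TGGCNNNNNGCCA (N is any base; it reads the same on both strands) is in capitals at its 8 fixed letters. All sequences are GRCh37, plus strand, 5′ to 3′. The first set holds the 4 regions with the highest mean fold enrichment among those with the palindrome, a peak in at least 2 replicates and mostly unique sequence.
chr16:1321953-1322192, nearest TSS TPSD1: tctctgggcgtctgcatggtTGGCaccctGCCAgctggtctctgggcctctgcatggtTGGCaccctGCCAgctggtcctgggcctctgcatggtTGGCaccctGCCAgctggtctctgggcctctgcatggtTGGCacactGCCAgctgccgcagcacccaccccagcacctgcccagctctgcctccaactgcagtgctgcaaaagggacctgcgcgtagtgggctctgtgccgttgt
chr2:118280892-118281131, nearest TSS DDX18: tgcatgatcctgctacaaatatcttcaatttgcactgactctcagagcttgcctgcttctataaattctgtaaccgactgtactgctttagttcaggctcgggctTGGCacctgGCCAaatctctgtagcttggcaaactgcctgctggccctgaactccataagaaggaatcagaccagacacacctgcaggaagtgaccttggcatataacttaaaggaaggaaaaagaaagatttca
chr2:20266014-20266253, nearest TSS LAPTM4A: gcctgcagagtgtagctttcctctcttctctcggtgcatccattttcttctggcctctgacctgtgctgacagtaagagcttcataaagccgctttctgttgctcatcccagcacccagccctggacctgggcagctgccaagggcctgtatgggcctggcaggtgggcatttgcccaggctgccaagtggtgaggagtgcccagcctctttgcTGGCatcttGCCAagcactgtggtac
chr7:98184771-98185010, nearest TSS NPTX2: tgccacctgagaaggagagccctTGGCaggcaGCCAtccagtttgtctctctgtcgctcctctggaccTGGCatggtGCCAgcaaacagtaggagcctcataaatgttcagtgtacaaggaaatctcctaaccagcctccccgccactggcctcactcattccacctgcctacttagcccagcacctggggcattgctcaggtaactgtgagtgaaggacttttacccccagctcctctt
The next stretch is from a region with the palindrome and a peak in every replicate, among the 2 highest of that kind.
chr12:66018409-66018648, nearest TSS HMGA2: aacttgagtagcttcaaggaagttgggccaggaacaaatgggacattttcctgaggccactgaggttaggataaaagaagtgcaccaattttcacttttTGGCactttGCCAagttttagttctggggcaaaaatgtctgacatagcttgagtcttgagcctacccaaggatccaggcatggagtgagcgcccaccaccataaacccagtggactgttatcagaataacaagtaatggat
The last is from a region without the palindrome and with a peak in every replicate, among the 3 highest of that kind, to show a sequence that lacks the word.
chr20:56477349-56477468, nearest TSS PMEPA1: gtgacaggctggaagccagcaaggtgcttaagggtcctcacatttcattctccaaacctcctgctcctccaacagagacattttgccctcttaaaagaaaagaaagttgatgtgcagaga
The stretch near TPSD1, a tryptase gene, held 4 palindromes in tandem copies of a repeat, and that near NPTX2, a neuronal pentraxin gene, held 2. The printed stretches near DDX18 (an RNA helicase), LAPTM4A (a lysosomal membrane protein) and HMGA2 (an architectural chromatin protein) each held 1. The stretch near PMEPA1, a TGF-beta induced gene, held no exact palindrome and 1 match that differed from it at 1 fixed letter.

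Across all distal HA regions the palindrome was found in 216 of 530 (40.8%, exact 95% interval 36.5 to 45.1%) within 300 bp around the summit of highest enrichment. It was found in 223 of the 475 intragenic regions away from H3K4me3 (46.9%) and in 125 of the 6206 regions near H3K4me3 (2.01%). Of 5118791 windows of 300 bp tiled outside protein coding genes it was in 0.411%. Of 20098 protein coding promoters (GENCODE on GRCh37, 250 bases before to 50 after the start) it was in 0.796%. The spacer length was specific. With 2, 3, 4, 6, 7 or 8 free bases in place of 5, between 0.189% and 1.7% of the distal HA regions held the palindrome, and 0.374% to 0.604% of the tiled windows did. The longer form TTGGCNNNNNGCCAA was present in 66 distal HA regions (12.5%), 0.226% of the regions near H3K4me3 and 0.0182% of the tiled windows. It thus made up 30.6% of the distal HA regions with a palindrome, 20.2% of the intragenic ones, 11.2% of those near H3K4me3 and 4.43% of the tiled windows with one. The search for this word was added after the sequences had been seen, so the shares describe the regions and carry no test.

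**Figure D1:**
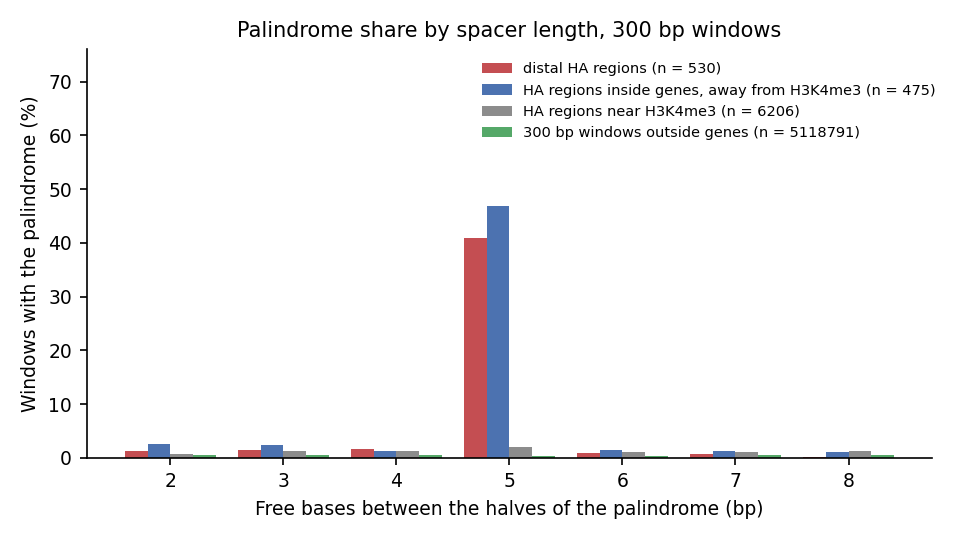
Share of 300 bp windows (y axis, percent) that hold TGGC and GCCA separated by 2 to 8 free bases (x axis), for distal HA regions, intragenic HA regions away from H3K4me3, HA regions near H3K4me3 and windows tiled outside genes. Only at a spacer of 5 do the bars of the regions away from H3K4me3 rise, to 40.8% and 46.9%, while all others stay below 3%.

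A match with at most 1 of the 8 fixed letters changed occurred in 318 distal HA regions (60%). It was in 300 intragenic regions away from H3K4me3 (63.2%) and in 1265 regions near H3K4me3 (20.4%). This looser match was not counted in tiled windows or promoters, so its share outside HA regions is not known here. Among regions with no exact palindrome, a match with exactly 1 letter changed was in 102 of 314 distal regions (32.5%). It was in 77 of 252 intragenic regions away from H3K4me3 (30.6%) and in 1140 of 6081 regions near H3K4me3 (18.7%). The GC content of the windows differs between these classes, as given below, and its part in these shares was not tested. The palindromes counted lay on the summit and on either side of it. Only the 300 bp around each replicate's summit were searched, so none farther out could be counted. In replicate 1 the median distance from summit to palindrome centre was 52 bp over 209 sites, of which 139 (66.5%) lay between 25 and 100 bp away and 51 (24.4%) within 25 bp. In replicate 2 the median was 54 bp over 157 sites, with 107 (68.2%) and 32 (20.4%) in those ranges. Replicate 3 gave 33 sites with a median of 51 bp, with 15 (45.5%) and 10 (30.3%). The outer range covers 3 times the length of the inner one, so these shares do not set the flanks above the summit.

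**Figure D2:**
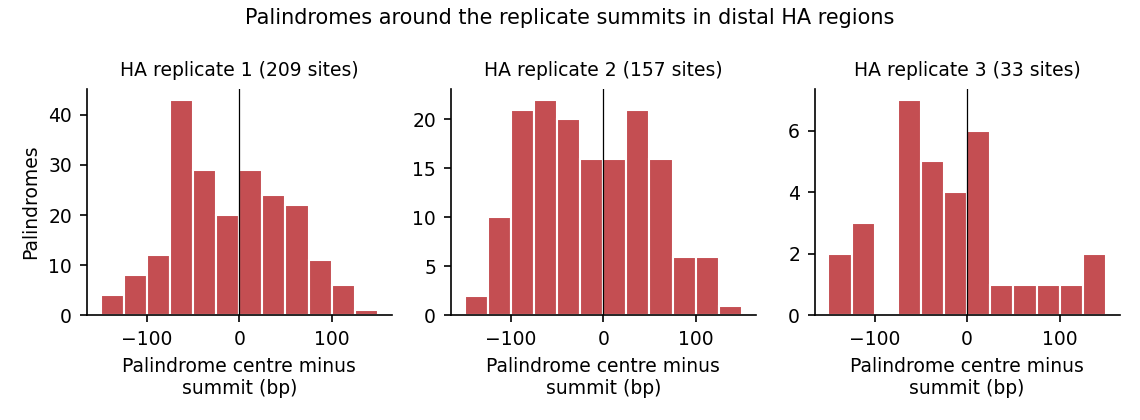
Distance of each palindrome centre from the summit of the replicate's own peak (x axis, bp, bins of 25 bp) against the number of palindromes (y axis), for distal HA regions in replicates 1, 2 and 3. In replicates 1 and 2 most palindromes lie within about 100 bp on either side of the summit. Few lie between there and the edge of the 300 bp window searched (19 of 209 and 18 of 157).

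A list of 12 motifs of other factors was searched in the same windows. The word searched for AP-1 was TGANTCA, which takes any base in the middle. It is therefore wider than TGACTCA and TGAGTCA, the sites of FOS and JUN dimers, which were not counted alone. TGANTCA was found in 9.81% of distal HA regions and 9.6% of tiled windows. The TEAD word GGAATG was found in 20.2% and 15.7%, and the RUNX word TGTGGT, bound by the osteoblast regulator RUNX2, in 19.4% and 19.5%. The GC box GGGCGG, a promoter element bound by SP factors, was in 14.2% of distal HA regions, 3.41% of tiled windows and 62.7% of regions near H3K4me3. The E-box CACGTG was in 6.23%, 2.57% and 7.33%. The CRE TGACGTCA was in 4 distal HA regions (0.755%, against 0.0977% of tiled windows) and the ETS word CCGGAAGT in 3 (0.566% against 0.126%). The CTCF, NRF1 and RNA polymerase III B box words used here had no match in the windows at the summits of distal HA regions. Windows at the region centres held CTCF in 0.377% and NRF1 in 0.189%. These words were also rare in tiled windows, at 0.22%, 0.0357% and 0.0113%. The lack of a match therefore does not set the distal HA regions apart from the tiled windows. CTCF was in 1.47% of intragenic regions away from H3K4me3 and 1.05% of regions near it. NRF1 was in 0.421% and 5.85% of them, and the B box in 0% and 0.226%. Both strands were searched, and TATAAA (10.2% against 30.8% of tiled windows) and CCAAT (30.6% against 40%) were less frequent in the distal HA regions than in the GC-poorer tiled windows.

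The support by single replicates was then determined as overlap with a peak of that replicate. A peak of every replicate was present at 125 of the 530 distal HA regions (23.6%, exact 95% interval 20 to 27.4%), against 52.3% of all merged HA regions. Replicate 1 had a peak at 397 distal regions (74.9%; 71.9% of all merged regions) and replicate 2 at 421 (79.4%; 83.8% of all). Replicate 3 had a peak at only 208 (39.2%; 78.9% of all). The largest class, 187 regions (35.3%), had peaks of replicates 1 and 2 and none of replicate 3, a combination seen at 10.4% of all merged regions. The intragenic regions away from H3K4me3 gave like values, with 20.4% in every replicate, 32.4% in replicate 3 and 37.5% in replicates 1 and 2 alone. No replicate list had a peak at 9 distal regions (1.7%), which rest on the pooled call. The merged list was called on these same replicates, so these counts describe how the pooled calls were made up.

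The palindrome moved with the replicates. It was in 57 of the 76 distal regions with a peak of replicate 1 alone (75%) and in 101 of the 187 with replicates 1 and 2 (54%). It was in 34 of the 125 with every replicate (27.2%), in 10 of the 50 with replicate 2 alone (20%), in 4 of the 59 with replicates 2 and 3 (6.78%) and in 1 of the 15 with replicate 3 alone (6.67%). Counted the other way, replicate 1 had a peak at 197 of the 216 regions with the palindrome (91.2%), replicate 2 at 149 (69%) and replicate 3 at 44 (20.4%). The 314 regions without it had a peak of replicate 1 at 200 (63.7%), of replicate 2 at 272 (86.6%) and of replicate 3 at 164 (52.2%). The pattern was not particular to the distal regions. Intragenic regions away from H3K4me3 held the palindrome in 77% with replicate 1 alone, 63.5% with replicates 1 and 2 and 22.7% with every replicate. With replicate 2 alone, replicates 2 and 3, and replicate 3 alone it was in 23.9%, 4.88% and 9.09% of them.

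**Figure D3:**
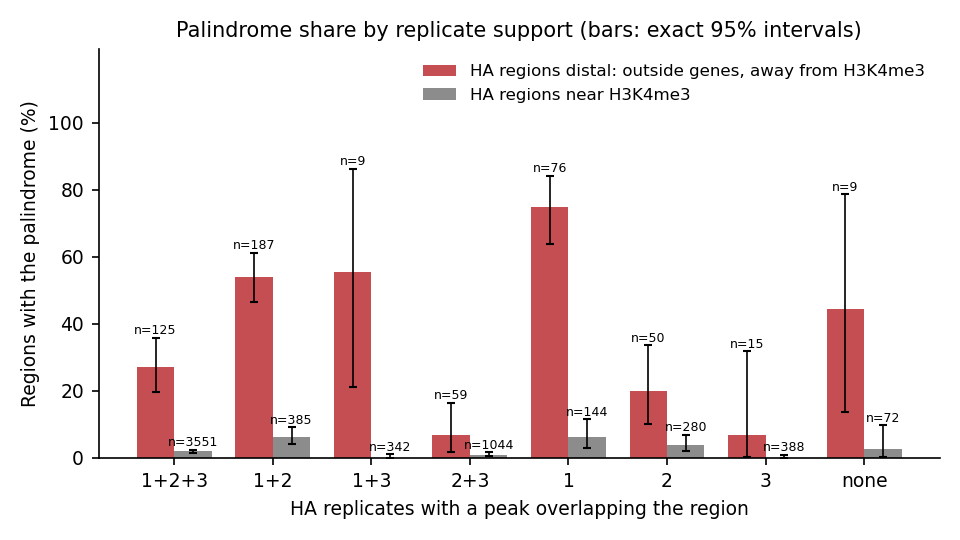
Share of regions with the palindrome (y axis, percent) by the HA replicates that had a peak there (x axis), for distal HA regions and for HA regions near H3K4me3, with exact 95% intervals as error bars and the number of regions above them. Distal regions with replicate 1 alone stand at 75%, those with replicate 3 alone at 6.67%, and regions near H3K4me3 at 6.25% or below in every class.

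The same order was seen in the replicates' own lists, before any merging. Peaks outside protein coding genes and away from H3K4me3 numbered 603 in replicate 1, 1081 in replicate 2 and 716 in replicate 3, and 271 (44.9%), 237 (21.9%) and 60 (8.38%) of them held the palindrome around their own summit. Intragenic peaks away from H3K4me3 held it in 46.3%, 20.8% and 8.92%, and peaks near H3K4me3 in 2.36%, 1.93% and 0.86%. Some of the distal peaks of a replicate overlapped no merged region and so had no part in choosing the 530. There were 136 such peaks in replicate 1, of which 69 held the palindrome (50.7%, 42 to 59.4%). In replicate 2 there were 551, of which 83 held it (15.1%, 12.2 to 18.3%), and in replicate 3 there were 420, of which 24 held it (5.71%, 3.7 to 8.38%). The intervals cover counting error over peaks only. With 1 library per replicate they do not serve to compare the replicates. The 281 bp minimum of replicate 2 and the depth of each library move with the replicate, and their part in this order was not tested.

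Fold enrichment, the height of the summit over the local control background as given by the peak caller, varied widely between regions, with 5th to 95th percentiles of 3.69 to 10.9 (replicate 1), 4.01 to 12.8 (replicate 2) and 3.45 to 7.28 (replicate 3). Its median over the distal HA regions with a peak was 5.22 in replicate 1, 6.33 in replicate 2 and 4.52 in replicate 3. These average 5.35 ± 0.912 (SD, n = 3). For regions near H3K4me3 the average was 5.43 ± 0.533 and for intragenic regions away from H3K4me3 5.37 ± 0.999. All classes were read in the same 3 libraries. The medians near H3K4me3 were 5.03, 6.03 and 5.22, so the distal ones were higher in replicates 1 and 2 and lower in replicate 3. The intragenic medians were 5.24, 6.43 and 4.44. At the summits of the distal regions the median number of HA fragments was 50.5, 53 and 36. The median control background there, at the lower depth of the control, was 1.53, 1.97 and 1.65. Its ratio to the other HA regions was 0.859 ± 0.112 (SD, n = 3). The commonest background over all summits of a replicate was 1.33, 1.55 and 1.41, a value that many distal regions shared. The fragments and the background are on different scales, so their quotient is not the fold enrichment. In regions with the palindrome the median fold enrichment was 5.85 in replicate 1 and 7.53 in replicate 2, against 4.76 and 5.71 in regions without it. In replicate 3 it was 4.41 and 4.55. When the regions were ranked by fold enrichment in replicate 2 and split into 4 equal bins, the palindrome share was 14.2%, 25.7%, 39% and 62.9% from the lowest to the highest. In replicate 1 it was 30%, 42.4%, 68.7% and 57.6%, and in replicate 3 it was 19.2%, 25%, 15.4% and 25%.

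**Figure D4:**
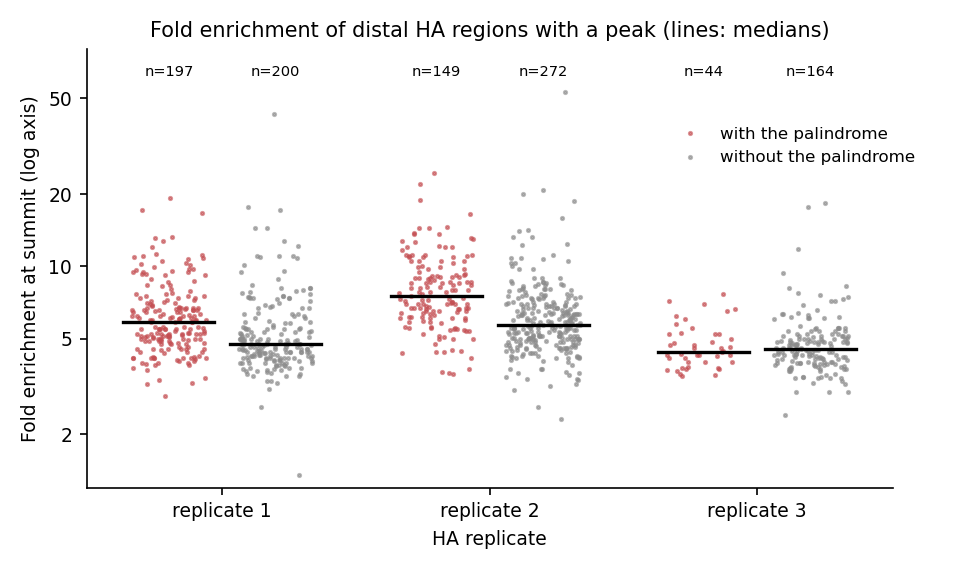
Fold enrichment at the summit (y axis, log scale) of the distal HA regions with a peak in replicates 1, 2 and 3 (x axis), with and without the palindrome; each point is a region and lines are medians. In replicates 1 and 2 the median is higher with the palindrome (5.85 and 7.53) than without it (4.76 and 5.71), while in replicate 3 the medians are 4.41 and 4.55.

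At the 125 distal regions with a peak in every replicate, the median log2 ratio of replicate 3 to the mean of replicates 1 and 2 was -0.34, and it was below 0 at 102 of them (81.6%). At the 3551 regions near H3K4me3 with such peaks the median was -0.10. With the palindrome the median was -0.81 and 33 of 34 regions were below 0. Without it the median was -0.25 and 69 of 91 were below 0. Regions with a peak in every replicate had to pass the threshold in replicate 3, so these ratios leave out the regions at which replicate 3 fell short.

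The highest region of all lay on chromosome 14, 21230 bp downstream of the start of RPL10L, a ribosomal protein gene. Its fold enrichment was 43.2 in replicate 1, 53.3 in replicate 2 and 7.75 in replicate 3. The summit held 355, 378 and 53 HA fragments. The control background of 1.33, 1.55 and 1.41, at the depth of the control, was the commonest value over all summits of each replicate. It is therefore not particular to this site. Replicate 3 was thus far below the other two, and the 6.87-fold spread was the largest among regions with every replicate. The second highest among regions with a peak in every replicate, chr8:50743783-50744139 near SNTG1, a syntrophin gene, gave 17.2, 22.1 and 5.53, and 54.1% of its 31-base words recur elsewhere in the genome. At chr20:56477162-56477584, 190781 bp upstream of PMEPA1, the values were 14.4, 18.7 and 9.41. Replicate 2 was the highest and replicate 3 the lowest at all 3 of these sites. The region near HMGA2 (chr12:66018339-66018691) gave 10.5, 18.8 and 7.17, that near ADAM10, a cell surface metalloprotease gene, 11.3, 14.5 and 6.22, and that near NOG, a BMP antagonist gene (chr17:54716914-54717236), 10.8, 12.8 and 4.84. Each of these 3 held 1 palindrome. The remaining wide ranges between replicates also had replicate 3 lowest, at 4.25 near SPRY1 (6.63 and 13.7 in replicates 1 and 2), 3.78 near FKBP9 (9.78 and 12.2) and 3.78 near YTHDF1 (11.1 and 12.1).

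A pair of regions on chromosome X went the other way. The region 27830 bp upstream of PGRMC1 gave 8.01, 12.4 and 17.6, and that 65305 bp upstream of SLC25A43 gave 7.53, 11.2 and 18.4. Replicate 3 was the highest at both. They are 2511 and 2155 bp wide, lie 123283 bp apart, have a GC content of 71% and 70.7% at the summit and hold no palindrome there. Of their 31-base words 49.3% and 34.1% around the summit recur in the genome, but only 2.61% of the first region's words are found in the second.

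Width separated the distal HA regions further. The median width was 269 bp and the largest 7353 bp. Up to 200 bp there were 174 regions, of which 102 (58.6%) held the palindrome, 35 (20.1%) had a peak of replicate 3 and 4 (2.3%) had a peak of every replicate. From 200 to 500 bp, 98 of 222 (44.1%) held the palindrome and 49 (22.1%) had every replicate. From 500 to 1000 bp it was in 12 of 55 (21.8%), and 26 (47.3%) had every replicate. Of the 39 regions from 1000 to 2000 bp 1 held the palindrome at the summit (2.56%) and 21 (53.8%) had every replicate, and of the 40 regions over 2000 bp 3 held it (7.5%) and 25 (62.5%) had every replicate. Narrow regions thus often carried the palindrome and rested mainly on replicates 1 and 2, whereas wide ones rarely held it at the summit and were found in more replicates. Counted over the whole region, the palindrome was in 5 of the 39 regions from 1000 to 2000 bp (12.8%) and in 13 of the 40 over 2000 bp (32.5%), which offer more sequence to match. A wider region has more room to overlap a peak, and among all merged regions the share with every replicate also went from 6.2% up to 200 bp to 80% over 2000 bp.

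**Figure D5:**
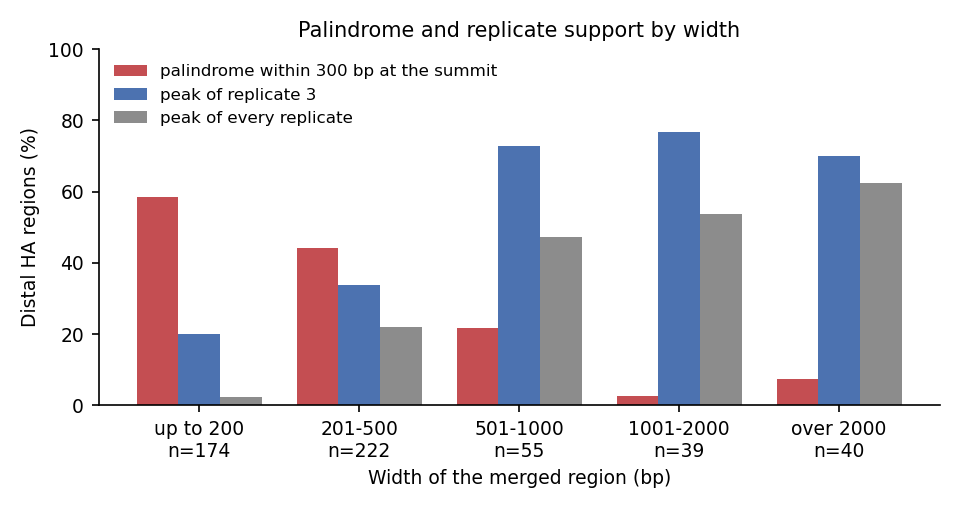
Share of the distal HA regions (y axis, percent) with the palindrome at the summit, with a peak of replicate 3 and with a peak of every replicate, by width of the merged region (x axis, bp). From the narrowest to the widest class the palindrome goes from 58.6% to 7.5% and support by every replicate from 2.3% to 62.5%.

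The widest region was chr22:30600848-30608200 with 7353 bp, 38224 bp downstream of the start of LIF, a cytokine gene of the IL-6 family, with fold enrichments of 4.47, 5.8 and 6.38. A second LIF region, chr22:30631433-30635687, spans 4255 bp within 1 kb of the start of LIF-AS1 and gave 5, 6.83 and 5.39. The others among the 5 widest lie on chromosome 2 (5133 bp, a peak of replicate 2 alone at 3.46), near JCAD, an endothelial junction gene (4593 bp, with 4.16, 7.11 and 5.26), near the syntaxin gene STX16 (4562 bp, with 5.12, 6.03 and 4.2) and near H2BC12L (4527 bp, with no peak of replicate 1, then 4.85 and 4.06). None of these 5 held the palindrome at the summit.

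The distal HA regions lay a median of 44299.5 bp from the nearest TSS of a protein coding gene, with 319 of 530 on its upstream side. The rule leaves out gene spans, which extend downstream of a TSS, and so favours the upstream side. Only 12 regions lay within 1 kb of a TSS, 86 at 1 to 10 kb, 182 at 10 to 50 kb, 164 at 50 to 200 kb and 86 beyond 200 kb. The palindrome share over these classes was 16.7%, 32.6%, 35.2%, 45.7% and 54.7%. The farthest, chr21:24526313-24526534, lies 2155697 bp from the start of NCAM2, a neural adhesion gene, holds 1 palindrome and gave 6.57, 9.48 and 4.15. The nearest H3K4me3 region of either line was a median of 24784.5 bp away. The palindrome was in 23.2% of the 56 distal regions under 5 kb from H3K4me3, in 33.9% of the 180 at 5 to 20 kb, in 39.2% of the 130 at 20 to 50 kb and in 55.5% of the 164 beyond. Over the same classes a peak of replicate 3 was present at 57.1%, 45.6%, 36.9% and 28%.

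Among the members nearest to the 1 kb limit were chr5:137805439-137806579 near EGR1, an early response gene (1062 bp from H3K4me3, fold enrichment 5.36 and 8.92 in replicates 1 and 2 and no peak of replicate 3) and the region near ZNF703 (1267 bp; 5.53 in replicate 2 alone). Just inside the limit, and so not members, were regions outside genes near ZNF532 (921 bp; 5.39, 5.49 and 6.57), UNC13D (682 bp; 6.09, 8.86 and 5.65) and TVP23A (575 bp; 4.78 and 6.34, none in replicate 3). None of these 5 held the palindrome. The members closest to a gene span had centres 5 bp from CRK, 70 bp from the span nearest to the region by LBX2 and 72 bp from that by VWA7.

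With respect to noncoding genes, the centre of 138 distal HA regions (26%) lay inside one, mostly a lncRNA (130), and 392 (74%) lay in no annotated gene. The start of a noncoding gene was within 1 kb of 43 (8.11%), against 6.95% of the intragenic regions away from H3K4me3 and 32.1% of the regions near H3K4me3. Of these starts 29 regions had a lncRNA, 2 a miRNA (MIR4309 and MIR4425), 1 a U4 snRNA copy (RNU4-73P) and 1 a 7SL copy (RN7SL345P). The most enriched of the named ones was at LINC01132 (chr1:234859934-234860258), with 1 palindrome and 6.64 and 7.72 in replicates 1 and 2. At SWINGN (chr13:114629242-114631347) replicate 3 was the highest, with 4.76, 6.13 and 8.3.

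Chromosome 22 had 34 distal HA regions, the most per length (6.63 per 10 Mb), followed by chromosome 17 with 35 (4.31) and chromosome 20 with 22 (3.49). The fewest per length were on chromosome X (6, or 0.386 per 10 Mb) and chromosome 4 (10, or 0.523). As a share of all merged HA regions of the chromosome, the distal ones were highest on chromosomes 22 (12.8%), 8 (12.7%), 13 (11.3%), 7 (10.8%) and 20 (10.4%). They were lowest on chromosomes 16 (2.69%) and 19 (3.72%). Chromosomes 17, X and 4 had 7.25%, 6.74% and 4.93%, against 7.35% over all chromosomes used. The densest 1 Mb window held 8 regions between 26914732 and 27908816 of chromosome 22, along TFIP11, the lens crystallin genes CRYBB1 and CRYBA4, and MN1. They ranged from 177 to 3265 bp, 7 of 8 had a peak of replicates 1 and 2, 2 of 8 a peak of replicate 3, and 3 of 8 held the palindrome. Across the genome the 530 regions had 459 different nearest genes, of which MN1 had 5 and CDC5L, CEBPB and PDGFA were among those with 4 each.

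The nearest genes were then looked up in 4 lists related to the tissue and to MMP-2. The 459 nearest genes are 2.28% of the 20090 protein coding genes on these chromosomes. Of 14 AP-1 and early response genes 3 were (EGR1, IER3 and MYC, with 6 regions), of 18 osteoblast and bone genes 1 (SOX9, 3 regions), of 10 TEAD and YAP targets 1 (ANKRD1, 2 regions) and of 24 matrix and metalloproteinase genes 2 (COL5A1 and FN1, 1 region each). At ANKRD1, a stress-induced cardiac repeat protein gene, the regions gave 7.41 and 4.78 in replicates 2 and 3 (9794 bp upstream) and 3.49, 4.35 and 5.47 (9341 bp downstream of its start). The SOX9 regions, 266034 to 482381 bp downstream of this chondrocyte regulator, had no peak of replicate 3 and reached 5.32. The FN1 region, for fibronectin, gave 4.28 and 5.32 in replicates 1 and 2. Of these 13 regions 1, near MYC, held the palindrome.

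The base composition at the summits was compared last. The rule does not name GC content, but it removes regions near H3K4me3, a mark of active promoters. Promoter windows had a median GC content of 60.3%, so the comparison with regions near H3K4me3 is not independent of the rule. The replicates were also read inside the same merged regions, so their differences are not independent of one another. The median GC content of 300 bp around the replicate's summit was 52.3%, 54.3% and 52.7% at the distal HA regions in replicates 1, 2 and 3, and 67.7% in each replicate at the regions near H3K4me3. The difference was -14.6 ± 1.07 percentage points (SD, n = 3) and negative in 3 of 3 replicates. An exact two-sided permutation of the signs gave p = 0.25, and 0.25 after Benjamini-Hochberg adjustment over 2 comparisons, which is the smallest p that 3 replicates allow. Against intragenic regions away from H3K4me3 the difference was -1.72 ± 0.918 points, also negative in 3 of 3, with the same exact p = 0.25. For comparison, the median GC content of the tiled windows was 39.3%. A window held a median of 5 CpG at the distal regions and 27 near H3K4me3. Within the distal regions the median GC content was 51% with the palindrome and 55.2% without it.

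Recurrent sequence was more common than at other HA regions. At least 50% of the 31-base words around the summit occurred more than once in the genome at 52 distal HA regions (9.81%), at 6.53% of the intragenic regions away from H3K4me3 and at 1.47% of the regions near H3K4me3. The median share of recurrent words was 0%. Besides the region near SNTG1, the share was high at other regions named above. It was 69.3% near SPRY1, 65.2% at the widest region near LIF, 56.3% near NCAM2, 74.8% near CRK and 59.3% near TFIP11. The authors kept reads above a mapping quality limit, which removes reads that place equally well elsewhere, and the part of recurrent sequence in the enrichment was not tested.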

How the data were processed

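Peak lists of 5 of the 6 samples and the merged HA list were used. Per the study's methods and the submitters' processing notes, the authors trimmed reads (Trim Galore 0.6.0), aligned pairs to hg19 (GRCh37, Bowtie2 2.3.5.1), filtered them (SAMtools 1.9, Picard) and called peaks with MACS2 3.0.0a6 against an input or control immunoprecipitation. The deposited HA replicate lists give, for each summit, a score, a ratio (fold enrichment over local background), and p-value and q-value as −log10. The merged HA and H3K4me3 lists deposited by the authors hold intervals alone, with narrow and broad calls combined; H3K4me3 depth is unknown.

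Members were found by the 3 criteria given above, with gene spans and TSSs from GENCODE on GRCh37. The 5 merged regions on other sequences were left out. The highest summit line of a replicate that overlaps a region by at least 1 bp gave its value. Fragments and control background were recovered from fold enrichment and p-value at 93.9% (replicate 1), 96.9% (replicate 2) and 96.1% (replicate 3) of summits, after a test on simulated data. Fragments are HA counts, and the depth of HA over control was 3.57, 2.81 and 3.00 in replicates 1, 2 and 3. The background is at the depth of the control. Fold enrichment is the fragments divided by this depth ratio, plus 1, over the background plus 1. Motifs and GC content were read from GRCh37 in 300 bp around the summit of the highest replicate (centre of the region where there was none), and windows of 300 bp outside protein coding genes were the comparison. Recurrence is the share of 31-base words found more than once in the assembly. Shares carry 95% exact (Clopper-Pearson) intervals where given. These cover counting error over regions or peaks only, which all come from the same 3 HA libraries and are not independent replicates. Fragments without molecular identifiers also need not be independent molecules. GC content was tested by an exact permutation of the signs over the 3 replicates, two-sided. Python 3.11.15, numpy 2.4.6, pandas 2.3.3, scipy 1.17.1, pysam 0.24.0 and samtools 1.23.1 were used.

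The members and the gene and motif lists were chosen with earlier results of these data known. Regions are named by rule: the 10 of highest mean enrichment among those with every replicate, the 5 widest, the 5 with the widest replicate range, the 5 farthest from a TSS, those next to the limits, those of the densest 1 Mb, those at starts of small or named noncoding RNAs, and those nearest to genes of the 4 lists. Some named regions and sequences are not reported here, and the sequences shown follow the rules stated beside them. The palindrome, its variants, the width classes and the replicate combinations were added after the data were seen.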

Additional observations from a re-analysis of the deposited data

How the results depend on the processing

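No paired analysis was possible because only the HA group of ProMMP2-3xHA cells has more than 1 replicate, so no 2 groups could be paired, and the GC comparisons are differences within each HA library. The number of distal HA regions stayed between 392 (outside all annotated genes) and 561 (no H3K4me3 overlap required) under the planned definitions, and was 314 without those that held the palindrome. The count of 125 with a peak of every replicate was 63 when 50% of the region had to be covered and 61 at a q-value of 0.001, and leaving out 1 replicate gave 134 to 312, the highest without replicate 3. Without 1 replicate the mean of median fold enrichments was 4.87 to 5.77, the GC difference -15.2 to -14.2 points against regions near H3K4me3 and -2.17 to -1.25 against intragenic regions, and the control background ratio 0.797 to 0.905. Within 150 bp in place of 300 bp, the share with any of the 12 listed motifs went from 73% to 46.6%, and that of the palindrome from 40.8% to 28.7%, since the window is shorter. The palindrome share was 60% with at most 1 letter changed (20.4% in regions near H3K4me3) and 12.5% for the longer form (0.226% in those regions). Regions with recurrent sequence numbered 85 with 21-base words and 121 at a limit of 10% in place of 50%. A noncoding start lay inside 17 regions and within 5 kb of 123. Of the 74 alternatives run 19 moved the value, 7 of them for single motifs in the shorter window, and in the 13 whose value could change sign none did. The files give fragments only at called summits, so a region without a peak in a replicate may still carry signal below its threshold there (at least 29, 23 and 24 fragments lay at any called summit of replicates 1, 2 and 3).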
